A study of Mus musculus with 7 samples.

Results

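The 64 cytosolic ribosomal protein genes described here are those whose symbol in the array platform's annotation is Rpl or Rps followed by a number and at most 1 letter, together with Rplp0, Rplp1, Rplp2 and Rpsa. They were taken from 22180 genes measured by a probe set (a group of array probes summarised to 1 value) that carries 1 gene symbol, and each gene was read from its probe set of highest mean signal over the 7 arrays. The rule itself uses symbols and mean signal and no expression difference, but the set was chosen with earlier results of these data known. The set held 37 proteins of the large subunit, 24 of the small subunit and the 3 proteins of the stalk (Rplp0, Rplp1 and Rplp2). Of the 80 genes on a general list of mammalian ribosomal proteins, 57 were members. A further 12 (Rpl10, Rpl12, Rpl13a, Rpl23, Rpl24, Rpl31, Rpl35a, Rpl36, Rpl36a, Rps2, Rps15a and Rps21) were named here only on probe sets with several symbols. Another 9 were not analysed here, and 2 (Fau and Rps3a1) had a probe set of their own but a symbol outside the rule. The other 7 members were related genes that the symbol rule takes in, namely Rpl3l, Rpl6l, Rpl10l, Rpl32l, Rpl39l, Rps4l and Rps27l.

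Total RNA came from C2C12, a mouse cell line of muscle precursors (myoblasts) kept dividing by serum and able to fuse into myotubes. The cells of all groups grew in medium with 15% fetal bovine serum and received siRNA with a lipid reagent, at 0.2 µmol for a dish of 100 mm. Control cells received a control siRNA (2 arrays), siG9a cells an siRNA against G9a (3 arrays) and siGLP cells an siRNA against GLP (2 arrays), and each array was a single-colour Affymetrix whole transcript array hybridised with labelled cDNA from 100 ng of RNA. Ehmt2 encodes G9a and Ehmt1 encodes GLP, a pair of related methyltransferases that modify histone H3 at lysine 9, and the study set their roles in myoblasts side by side. The sources used here do not give the time between transfection and harvest or the number of siRNAs per target. Nothing in the labels says that the arrays of a group came from separate cultures, so the spread behind every p-value is that of these samples alone and may be technical.

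A ribosome holds a fixed set of proteins on a scaffold of ribosomal RNA, and the proteins are made in matched amounts in growing cells. Their mRNAs begin with a run of pyrimidines at the cap, the terminal oligopyrimidine (TOP) motif, through which the kinase complex mTORC1 sets their translation. Many of the genes carry in their introns the small nucleolar RNAs (snoRNAs) that guide the modification of ribosomal RNA. In myoblasts, ribosome production is high during proliferation and is lowered as cells leave the cell cycle.

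RefSeq promoter entries (GRCm38.p6) were found for 49 of the 64 members, with 58 start sites in all. The windows below run from 40 bases before to 20 bases after the annotated start and are shown for the members with an unadjusted limma p under 0.05 in at least 1 comparison (Rps12, Rpl34, Rpl6, Rpl32l, Rpl3l, Rpl39l, Rplp2 and Rps26), with Rps18, a member of low spread, beside them. Capitals mark a run of at least 6 pyrimidines that begins with C and starts within 10 bases of the annotated start. The TOP motif begins at the cap itself, so a marked run need not be one.
Rps12, chr10:23787190-23787249, minus strand: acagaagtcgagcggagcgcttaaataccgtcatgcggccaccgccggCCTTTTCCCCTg
Rpl34, chr3:130730379-130730438, minus strand: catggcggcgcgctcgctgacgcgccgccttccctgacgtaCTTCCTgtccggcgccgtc
Rpl6, chr5:121204461-121204520, plus strand: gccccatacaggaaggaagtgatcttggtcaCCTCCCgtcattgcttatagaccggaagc
Rpl32l, chr10:20208399-20208458, plus strand: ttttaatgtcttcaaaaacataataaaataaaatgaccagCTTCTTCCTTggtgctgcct
Rpl3l, chr17:24727786-24727845, plus strand: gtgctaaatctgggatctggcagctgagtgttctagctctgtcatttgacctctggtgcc
Rpl39l, chr16:10170188-10170247, plus strand: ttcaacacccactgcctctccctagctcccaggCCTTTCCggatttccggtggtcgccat
Rplp2, chr7:141447611-141447670, plus strand: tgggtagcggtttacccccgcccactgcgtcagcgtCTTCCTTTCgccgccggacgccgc
Rps26, chr10:128626487-128626546, minus strand: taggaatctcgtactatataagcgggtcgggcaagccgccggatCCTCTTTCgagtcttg
Rps18, chr17:33955646-33955705, minus strand: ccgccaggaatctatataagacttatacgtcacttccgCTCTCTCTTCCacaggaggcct
Of the windows shown, that of Rps18 has its run of 11 pyrimidines across the start, and that of Rplp2 a run of 9 that begins 4 bases before it. Only the run of Rpl32l, of 10 pyrimidines, begins at the annotated start itself. The other start site of Rpl34, not shown, has no run that starts within 10 bases of it. Neither start site of Rpl3l, of which the first is shown, has such a run. Such a run was found in 39.7% of the 58 member promoters and in 17.8% of all 32851 promoters of the table. In the whole entries of 300 bases, on either strand, CCGGAAG (the core bound by ETS factors) occurred in 37.9% of member promoters and 8.86% of all promoters, CACGTG (the E-box bound by Myc) in 10.3% and 7.15%, GATGGCG (the core bound by YY1) in 5.17% and 3.49%, and TATAAA in 8.62% and 13.6%. A match describes letters and not a site in use. The 23 members with a pyrimidine run had a median log2 difference of -0.048 between siG9a and control (16 lower), and the 26 members with an entry but no run had one of -0.047 (25 lower).

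The arrays were alike in scale, with a median log2 signal over all probe sets of 4.54 to 4.59 and an upper quartile of 6.85 to 6.90. Ehmt2 read 7.56 and 7.46 in control, 6.31, 6.14 and 5.99 in siG9a and 7.37 and 7.37 in siGLP, a log2 difference of -1.37 in siG9a (SE 0.10; limma adjusted p = 0.0308) that stayed between -1.45 and -1.29 without any 1 array but then no longer passed. Ehmt1 read 6.71 and 6.73 in control, 6.74, 6.60 and 6.53 in siG9a and 5.73 and 6.13 in siGLP, a difference of -0.79 in siGLP that did not pass over all genes (SE 0.14; limma adjusted p = 0.197). Each targeted transcript was lowest on the arrays of its own siRNA, with no overlap. All 6 myoblast markers examined (Myod1, Myf5, Cdh15, Des, Chrna1 and Itga7) had means of 7.34 or more, but 4 of the 6 lay below control in each knockdown (medians -0.143 in siG9a and -0.099 in siGLP). Myod1, the myogenic transcription factor, read 7.46 and 7.80 in control, 7.04, 6.99 and 6.82 in siG9a and 7.53 and 7.73 in siGLP. No marker of this list passed the threshold, the smallest limma adjusted p being 0.146 in siG9a and 0.292 in siGLP, and the part of such differences in the results below was not tested. Of the 12 markers of leukocytes, endothelium, epithelium and adipocytes, 11 were at 5.01 or less on every array, and the exception was the adipocyte gene Fabp4, at 3.18 to 4.19 in control and siG9a and 6.32 and 4.40 in siGLP. In bulk RNA, fewer cells of a type and less RNA per cell cannot be told apart.

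The members sat at the bright end of the array and varied little. On average over the 7 arrays, 29 of the 64 had a log2 signal of 11 or more, which 242 of the 22180 genes reached, while on every array Rpl10l and Rpl32l were dimmer than the lower quartile (3.32 to 3.36). Brightness does not rank the transcripts, because probe sets of different sequence bind differently. The SD over the 7 arrays had a median of 0.065 over the members and 0.119 over all genes, which were not matched to the members in signal. It was lowest for Rpl38 (0.018), Rps18 (0.019) and Rpl27 (0.019) and highest for Rplp2 (0.294), Rpl5 (0.224) and Rpl11 (0.207). The members above log2 11 had a median SD of 0.037, and those between 6 and 8 one of 0.084.

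**Figure D1:**
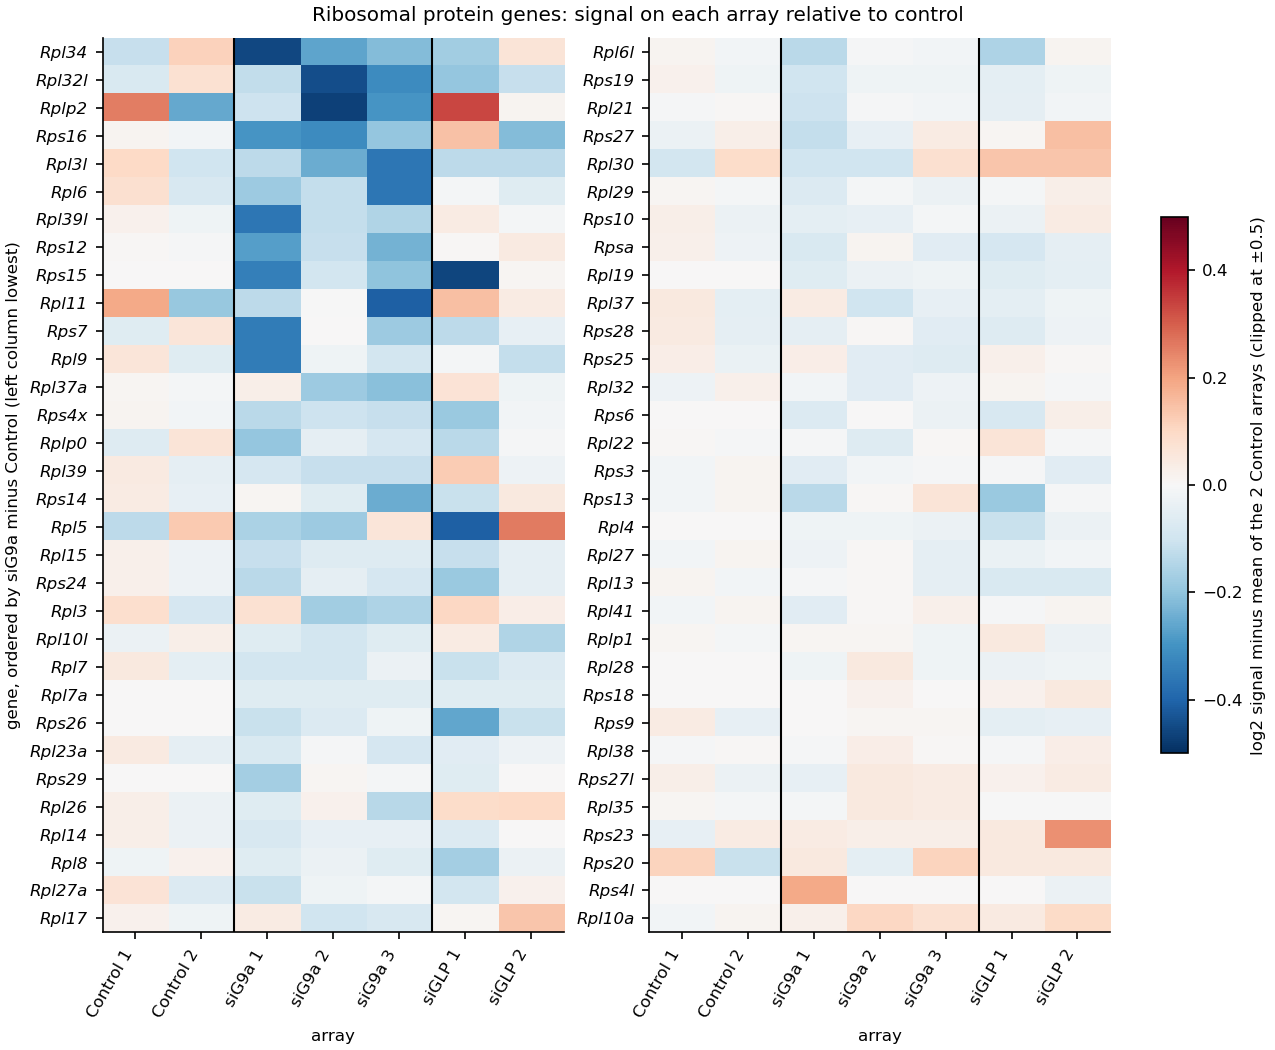
Log2 signal of each of the 64 ribosomal protein genes (rows) on each of the 7 arrays (columns), minus the mean of the 2 Control arrays and clipped at 0.5 in either direction; blue is below and red above that mean. Genes are ordered by the siG9a minus Control difference, and the left panel is bluest in the siG9a columns, from Rpl34 (-0.30) downwards.

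The comparison of siG9a with control asks how the transcripts stood when G9a was depleted. Most ribosomal protein transcripts lay slightly lower in siG9a, and no single one passed the test. Of the 64 members, 54 were below and 10 above control, with a median log2 difference of -0.048 (quartiles -0.104 and -0.025), where all genes had a median of 0.005 and 48.0% lay below. No member passed the threshold of a limma adjusted p under 0.05, which 0.0271% of all genes passed, and the smallest adjusted p of a member was 0.363. At an unadjusted limma p under 0.05, 6 members were lower, or 9.38% (4.57% of all genes), and 0 were higher (5.95% of all genes). The siG9a arrays lay wholly below the control arrays for 21 members, or 32.8%, against 11.7% of all genes, and wholly above for 1 member, against 14.0%. The 21 were Rpl3l, Rpl4, Rpl6, Rpl7a, Rpl8, Rpl10l, Rpl14, Rpl15, Rpl19, Rpl21, Rpl29, Rpl32l, Rpl34, Rpl39, Rpl39l, Rps4x, Rps12, Rps15, Rps16, Rps24 and Rps26, and the 1 was Rpl10a. Leaving out each array in turn gave between 47 (without control 1) and 58 (without siG9a 2) members below control, with medians from -0.062 to -0.033. After quantile normalization 52 of the 64 lay below control (median -0.05), and after cyclic loess normalization 48 did (median -0.04).

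**Figure D2:**
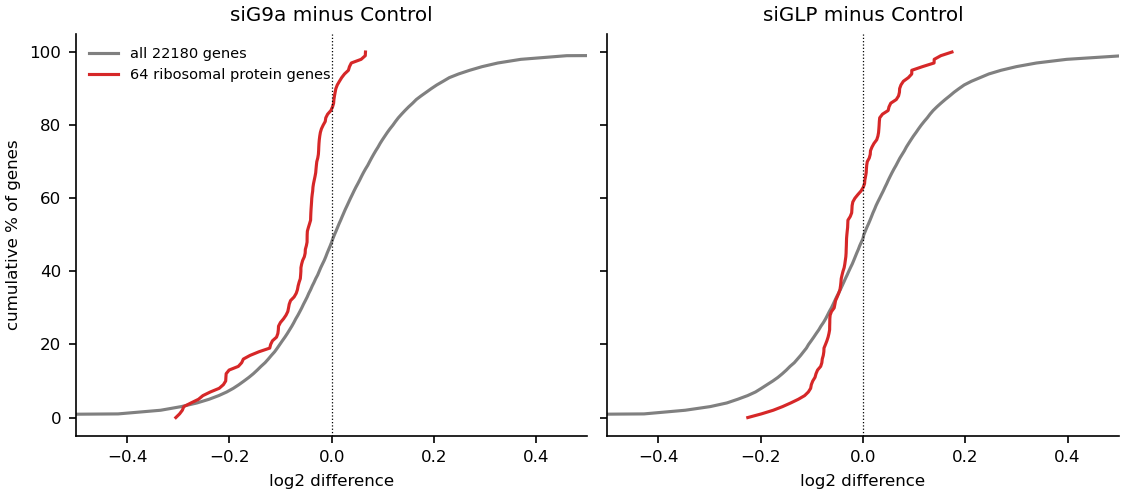
Cumulative percent of genes (vertical axis) by log2 difference from control (horizontal axis, drawn from -0.5 to 0.5) for all 22180 genes in grey and the 64 ribosomal protein genes in red, in siG9a (left) and siGLP (right). The red line is steeper than the grey in both panels and crosses the dotted zero line at 84.4% in siG9a and 62.5% in siGLP, where the grey line crosses near its middle.

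Rps12, a protein of the head of the small subunit, had the smallest p of the members in siG9a. Its log2 signal was 12.62 and 12.61 in control, 12.34, 12.50 and 12.38 in siG9a and 12.62 and 12.66 in siGLP. All 3 siG9a arrays lay below the other 4, and the siGLP arrays stood at or just above control. In siG9a it was at 86.6% of control, a log2 difference of -0.21 (SE 0.069; unadjusted p = 0.0204, limma adjusted p = 0.363), which ranged from -0.25 to -0.18 when each array was left out. This gene had 8 probe sets with its symbol alone, of which 6 held the same values on every array and so count as 1 measurement. The second probe set read 12.59 and 12.57 in control, 12.34, 12.49 and 12.40 in siG9a and 12.59 and 12.64 in siGLP. The 6 identical ones read 12.11 and 12.10 in control, 11.77, 11.90 and 11.84 in siG9a and 12.06 in both siGLP arrays. Each of these 3 profiles put every siG9a array below every control array, with differences of -0.21, -0.17 and -0.27. How many of their probes are shared, or match Rps12 pseudogenes as well, was not tested.

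**Figure D3:**
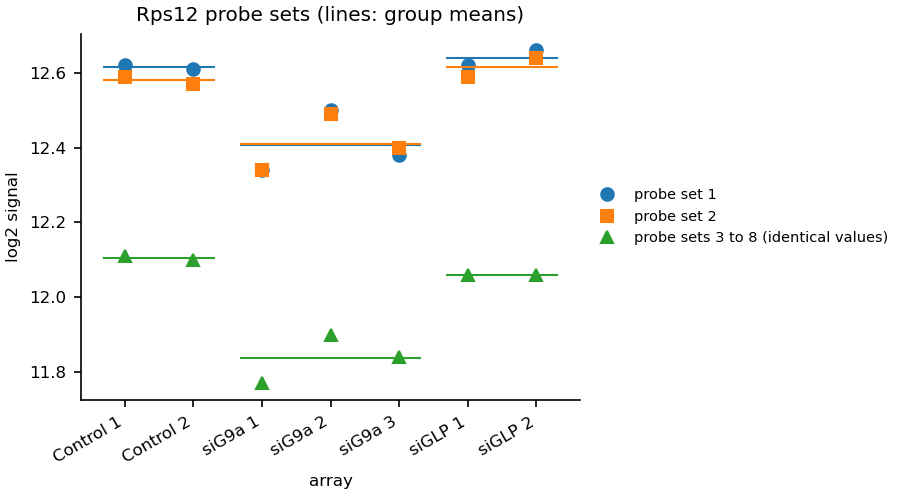
Log2 signal (vertical axis, not starting at 0) of the 8 Rps12 probe sets on the 7 arrays; circles and squares are the first and second probe sets, triangles the 6 with identical values, and horizontal lines the group means. In all 3 profiles the siG9a arrays lie lowest, for example at 12.34 to 12.50 against 12.61 and 12.62 in Control for the first.

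Among the large subunit proteins, 33 of 37 lay below control in siG9a (median -0.052). At an unadjusted limma p under 0.05, 5 of them were lower, as were 4.57% of all genes. These were Rpl34, Rpl6 and the dim related genes Rpl3l, Rpl32l and Rpl39l, described below. Rpl34 read 9.69 and 9.92 in control, 9.35, 9.54 and 9.59 in siG9a and 9.63 and 9.87 in siGLP. The siG9a arrays were the 3 lowest, although the 2 control arrays also lay well apart. Its difference, the largest among the members on the probe set used for each, was -0.30 (SE 0.12; unadjusted p = 0.0366, limma adjusted p = 0.434). Rpl6 read 7.34 and 7.18 in control, 7.08, 7.14 and 6.90 in siG9a and 7.25 and 7.20 in siGLP, a difference of -0.22 in siG9a (SE 0.091; limma adjusted p = 0.467). Its lowest control array and highest siG9a array were 7.18 and 7.14, so the groups were barely apart. Rpl10a was the only member whose siG9a arrays all lay above control, at 11.53, 11.61 and 11.58 against 11.49 and 11.52, a difference of 0.066 (SE 0.061; limma adjusted p = 0.747).

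Rpl5 and Rpl11, which together with 5S ribosomal RNA form the particle that binds the p53 regulator Mdm2, were among the most variable members. Rpl5 read 6.73 and 6.99 in control, 6.70, 6.68 and 6.92 in siG9a and 6.45 and 7.12 in siGLP, and the 2 siGLP arrays spanned all the others. Rpl11 read 6.75 and 6.37 in control, 6.43, 6.56 and 6.15 in siG9a and 6.71 and 6.60 in siGLP, with overlap between siG9a and control. Their siG9a differences were -0.094 (SE 0.20) and -0.18 (SE 0.15), and each turned to above 0 when 1 control array was left out (0.034 for Rpl5 without control 2 and 0.01 for Rpl11 without control 1). Rpl22, which has a closely related partner gene in Rpl22l1, read 7.40 and 7.39 in control, 7.39, 7.33 and 7.40 in siG9a and 7.46 and 7.39 in siGLP, with all groups overlapping.

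Among the small subunit proteins, 18 of 24 lay below control in siG9a, with a median of -0.038. Rps4x read 11.52 and 11.49 in control and 11.37, 11.40 and 11.39 in siG9a, a tight separation of -0.12 (SE 0.070; limma adjusted p = 0.611), while its siGLP arrays stood well apart from each other, at 11.32 and 11.49. Rps6, the substrate of S6 kinase, stood at 12.12 in both control arrays, 12.05, 12.12 and 12.09 in siG9a and 12.04 and 12.15 in siGLP, with no separation of the groups. Rpsa, the small subunit protein also known as the laminin receptor, read 11.17 and 11.12 in control, 11.07, 11.16 and 11.09 in siG9a and 11.06 and 11.10 in siGLP. Its siG9a difference was -0.037 (SE 0.063; limma adjusted p = 0.869). Rps20 and Rps23 were the canonical small subunit members of smallest p above control, at 0.035 and 0.034 (SE 0.087 and 0.075). Rps20 turned to -0.074 without control 2 and -0.0019 without siG9a 3, and Rps23 to -0.0083 without control 1. The other members above control in siG9a were Rpl28, Rpl35, Rpl38, Rps9, Rps18, Rps27l and Rps4l, and of the 10 none exceeded Rpl10a.

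All 3 stalk proteins, which draw elongation factors to the ribosome, lay below control in siG9a, but their arrays overlapped. Rplp2 read 6.32 and 5.81 in control, 5.96, 5.60 and 5.77 in siG9a and 6.40 and 6.08 in siGLP, and its control arrays were the farthest apart of any member (SD 0.36). Its siG9a difference was -0.29 (SE 0.18; limma adjusted p = 0.635). Rplp0 read 10.67 and 10.80 in control, 10.54, 10.69 and 10.65 in siG9a and 10.60 and 10.73 in siGLP, a siG9a difference of -0.11 (SE 0.081; limma adjusted p = 0.693). Rplp1 stayed between 12.44 and 12.52 on all arrays, and its difference of -0.00093 was far inside its SE of 0.060.

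The related genes that the symbol rule takes in were mostly dim. Of the 7, 3 were among the 6 members lower in siG9a at an unadjusted limma p under 0.05 (4.57% of all genes). Rpl3l, the form of Rpl3 found in striated muscle, read 4.21 and 4.01 in control, 3.98, 3.86 and 3.75 in siG9a and 3.98 in both siGLP arrays, a siG9a difference of -0.25 (SE 0.093; limma adjusted p = 0.415). Rpl3 itself read 11.39 and 11.22 in control, 11.38, 11.13 and 11.15 in siG9a and 11.41 and 11.34 in siGLP, with overlap (-0.082, SE 0.098). Rpl39l, a relative of Rpl39 best known from testis, read 5.12 and 5.08 in control, 4.74, 4.98 and 4.95 in siG9a and 5.14 and 5.09 in siGLP (-0.21, SE 0.086; limma adjusted p = 0.469). Rpl39 was at 4.70 and 4.61, then 4.57, 4.54 and 4.54, then 4.78 and 4.63 in the same order, also with its siG9a arrays lowest (-0.10, SE 0.072). For both genes of this pair the siG9a arrays lay below all other arrays. Rpl32l read 2.39 and 2.54 in control, 2.34, 2.02 and 2.15 in siG9a and 2.27 and 2.35 in siGLP (-0.29, SE 0.11; limma adjusted p = 0.398), values below the lower quartile of each array. Rpl32 stood at 12.07 to 12.15 on all arrays (-0.030, SE 0.058). The remaining differences in siG9a were -0.071 for Rpl10l, -0.048 for Rpl6l, 0.065 for Rps4l and 0.015 for Rps27l, a p53 target, whose parent Rps27 was at -0.041. Over the 57 canonical members alone, 49 lay below control (median -0.045), and 3 of the 6 with an unadjusted p under 0.05 remained (Rps12, Rpl34 and Rpl6).

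**Figure D4:**
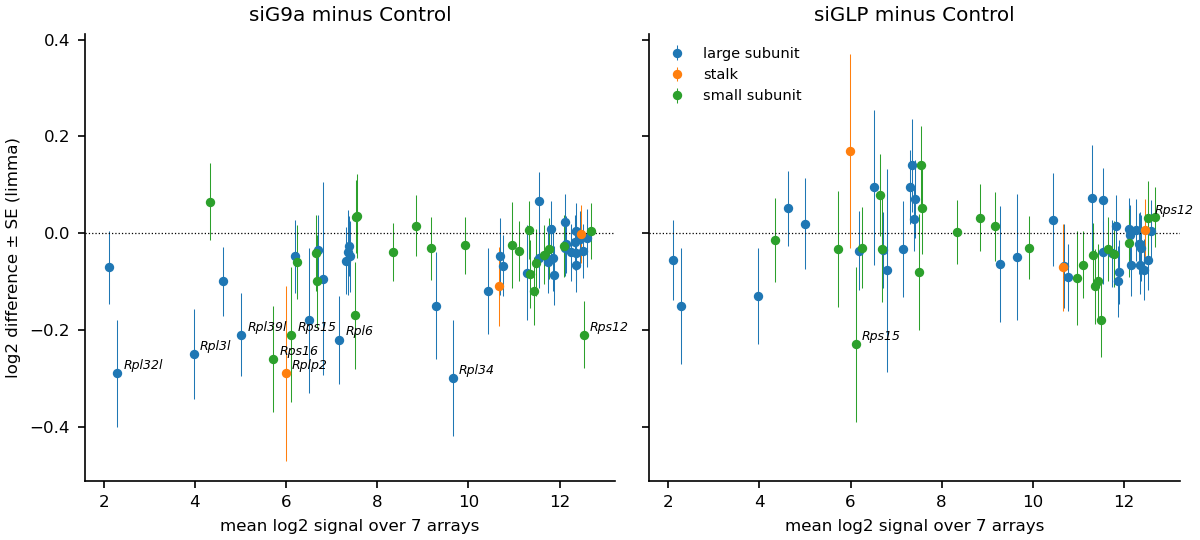
Log2 difference from control (vertical axis, bars are the limma SE) against mean log2 signal over the 7 arrays (horizontal axis) for the 64 ribosomal protein genes, coloured by subunit, in siG9a (left) and siGLP (right). In siG9a the points near -0.2 to -0.3 lie mostly below a signal of 10, and Rps12 (-0.21) is the exception among the bright genes.

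Differences were smaller among bright members, as they were among bright genes in general. Over all genes the median absolute siG9a difference was 0.047 at log2 11 or more and 0.082 to 0.1 in the dimmer ranges. Among the 29 members at log2 11 or more, the median siG9a difference was -0.037 and 23 were below control, where 55.8% of the 242 genes in that range were lower (median -0.008). Among the 16 members between 6 and 8 the median was -0.053 with 14 lower, against 42.6% of 4741 genes, and among the 6 between 3.32 and 6 it was -0.228 with 5 lower, against 51.2% of 9240 genes. In each of these ranges the share of members below control was above that of all genes. When only the 242 genes at log2 11 or more were tested, an alternative chosen after seeing the data, no member passed in siG9a, and Rps12 had the smallest limma adjusted p (0.0537).

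Probe sets not used for the main values also lay mostly below control in siG9a, 35 of 40 with a median of -0.076. Some had larger differences than any used, namely the third of Rpl7a (-0.41, SE 0.19), the second of Rpl7 (-0.38, SE 0.14) and the third of Rpl3 (-0.33, SE 0.07). With all probe sets tested, 0 passed a limma adjusted p under 0.05 in siG9a. Of all 104 probe sets with a member symbol alone, 89 (85.6%) lay below control, with a median of -0.055, and of 57 further probe sets on which such a symbol is listed with others, 43 (75.4%) did (median -0.054). Over all 33649 probe sets the share was 49.2%. The 104 held 97 distinct sets of values, and several came from 1 gene, so they are not independent. In siG9a, 18 of the 24 genes with several probe sets had all of them below control, 1 had all above, and 5 had both signs. Those 5 were Rpl35 (-0.16 to 0.075), Rpl4 (-0.023 to 0.0073), Rps18 (-0.017 to 0.043), Rps26 (-0.061 to 0.0035) and Rps9 (-0.040 to 0.0065). In siGLP, 11 of the 24 had both signs. The canonical proteins outside the symbol rule showed no separation in siG9a. Fau, which encodes a ribosomal protein fused to a ubiquitin-like protein, read 12.06 and 12.09 in control and 12.05, 12.11 and 12.10 in siG9a (0.012, SE 0.061), and its mean over probe sets was at -0.040. Rps3a1 read 11.98 and 11.83 in control and 11.89 in all 3 siG9a arrays (-0.012, SE 0.066), turning to 0.019 after quantile normalization.

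The comparison of siGLP with control asks the same of GLP. Fewer members lay below control, and the median difference shrank when either of 2 arrays was left out. Of the 64, 40 were below control (median -0.032, quartiles -0.065 and 0.021), against 49.0% of all genes (median 0.001). No member passed a limma adjusted p under 0.05, which 0.00451% of all genes passed, and the smallest adjusted p of a member was 0.577. At an unadjusted p under 0.05, 1 member was lower (4.13% of all genes) and 0 were higher (4.51% of all genes). The siGLP arrays lay wholly below control for 15 members, or 23.4%, against 16.9% of all genes, and wholly above for 6, or 9.38%, against 17.4%. Without siGLP 1 the median was -0.008, and without control 1 it was -0.013. After quantile normalization 40 of the 64 lay below control (median -0.027), and after cyclic loess normalization 36 did (median -0.02).

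The 1 lower member was Rps26, a small subunit protein at the exit of the mRNA channel. It read 11.57 in both control arrays, 11.46, 11.50 and 11.55 in siG9a and 11.31 and 11.46 in siGLP, and siGLP 1 was the lowest array. Its siGLP difference was -0.18 (SE 0.077; unadjusted p = 0.0493, limma adjusted p = 0.577), and its second probe set, at 9.50 and 9.48 in control and 9.12 and 9.48 in siGLP, put only siGLP 1 clearly apart. Rps15 had a larger difference, -0.23 (SE 0.16), from 6.27 in both control arrays and 5.81 and 6.28 in siGLP, and without siGLP 1 it was 0.010. Rps24 (-0.11), Rpl8 (-0.10), Rps4x (-0.10) and Rpl32l (-0.15) followed by p, each with its siGLP arrays wholly below control. The others of the 15 were Rpl3l, Rpl4, Rpl7, Rpl7a, Rpl13, Rpl15, Rpl19, Rpl21, Rpl28 and Rpsa. Rpl7a is an example of how fine these separations were, at 12.41 in both control arrays and 12.35 on each siG9a and siGLP array. The SD was 0.0 within siG9a and within siGLP, and why these values were the same was not tested.

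Above control in siGLP, Rps23 read 7.45 and 7.53 in control and 7.54 and 7.72 in siGLP (0.14, SE 0.082; limma adjusted p = 0.729). Rpl30 read 7.24 and 7.42 in control and 7.47 in both siGLP arrays (0.14, SE 0.096). Rpl26, which also binds p53 mRNA, read 7.34 and 7.28 in control and 7.40 and 7.41 in siGLP (0.095, SE 0.076), and Rpl10a was at 11.55 and 11.60 in siGLP against 11.49 and 11.52 (0.068, SE 0.067). These 4, with Rps12 and Rps18, were the members whose siGLP arrays lay wholly above control. The stalk proteins split, with Rplp2 at 0.17 (SE 0.20), Rplp1 at 0.0061 (SE 0.065) and Rplp0 at -0.071 (SE 0.089), all with overlapping arrays, and Rplp2 changed to -0.082 without control 2. Rpsa was at -0.065 (SE 0.069), Rps3a1 at -0.069 (SE 0.072) and Fau at -0.022 (SE 0.067).

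Whether the 2 knockdowns differed was tested directly as siGLP minus siG9a. Most members lay higher in siGLP, 44 against 19 lower and 1 at no difference, with a median of 0.016 where all genes had -0.004 and 51.1% lay lower. No member passed a limma adjusted p under 0.05, which 0.234% of all genes passed. At an unadjusted p under 0.05, 3 members were higher, or 4.69% (5.87% of all genes), and 0 were lower (6.57% of all genes). The arrays of the 2 knockdowns did not overlap, with siGLP higher, for 11 members, or 17.2%, against 12.1% of all genes (Rpl6, Rpl11, Rpl26, Rpl30, Rpl32, Rpl34, Rpl39, Rpl39l, Rplp2, Rps12 and Rps23), and with siGLP lower for 4, or 6.25%, against 14.2% (Rpl4, Rpl13, Rps9 and Rps26). The median was 0.000 without siG9a 1, where 31 members were lower, and 0.001 without siGLP 2, where 30 were.

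Rps12 had the smallest p in this comparison, with a difference of 0.24 (SE 0.069; unadjusted p = 0.011, limma adjusted p = 0.238) that ranged from 0.21 to 0.28 when each array was left out. Over the 242 genes at log2 11 or more, the alternative chosen after seeing the data, 11 genes passed. Rps12 was the 1 that passed among the 29 members tested there (limma adjusted p = 0.0246). Rplp2 differed by 0.46 (SE 0.18; unadjusted p = 0.0383, limma adjusted p = 0.370), with its highest siG9a array at 5.96 and its lowest siGLP array at 6.08. Rpl39l differed by 0.23 (SE 0.086; limma adjusted p = 0.359). Rpl26 differed by 0.15 (SE 0.069; limma adjusted p = 0.441), with siG9a arrays at 7.25, 7.33 and 7.17 below both siGLP arrays. In the other direction stood Rps26 (-0.12), Rps4l (-0.080), Rpl13 (-0.063) and Rps9 (-0.052), with unadjusted p of 0.127 or more.

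Read array by array, the members' median distance from the control mean was 0.010 and -0.010 on the control arrays, -0.068, -0.033 and -0.042 on the siG9a arrays and -0.029 and -0.008 on the siGLP arrays. On this measure all 3 siG9a arrays lay below the other 4, narrowly for siG9a 2 against siGLP 1, while siGLP 2 fell between the control arrays. The pooled SD of this median between arrays of a group was 0.016. Measured from each gene's mean over all 7 arrays instead, siG9a 2 (0.002) lay above siGLP 1 (-0.016), so the order of these 2 arrays depends on the reference. Over all genes the medians stayed between 0.000 and 0.005 from the control mean and between -0.003 and 0.004 from the mean over all 7 arrays. The lowest value of a member was most often on siG9a 1 (20 members) or siGLP 1 (16), which held the lowest value for 16.0% and 16.3% of all genes, and the highest most often on control 1 (21), which held it for 13.4% of all genes. Across the 7 arrays, 56 of the 64 members correlated positively with the mean of the other members (median Pearson r 0.47, from -0.632 to 0.879), a description over arrays that share their normalization.

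Ribosome biogenesis factors, which process ribosomal RNA and assemble subunits, lay mostly below control in both knockdowns. In siG9a 63 of 79 measured were below control (median -0.086) and in siGLP 65 of 79 (median -0.089), with the arrays wholly below control for 36 in each, where 11.7% and 16.9% of all genes were. The siG9a and siGLP differences share the control arrays. None passed over all genes in the fit used here. Riok1, a kinase of late small subunit maturation, had the smallest p in siG9a, at 8.37 and 8.35 in control and 7.70, 7.88 and 7.79 in siG9a (-0.57, SE 0.075; limma adjusted p = 0.0957), and its siG9a arrays lay well clear of control. It passed with trended robust moderation (limma adjusted p = 0.0251) and when genes dimmer than the median were dropped (0.0284). Utp15, of the small subunit processome, had it in siGLP, at 8.59 and 8.71 in control and 8.13 and 8.39 in siGLP (-0.39; limma adjusted p = 0.370). Of 19 genes of RNA polymerase I and its factors, which transcribe ribosomal RNA, 11 were below control in siG9a (median -0.033) and 14 in siGLP (median -0.071). The catalytic subunit gene Polr1a stood at -0.31 in siG9a (limma adjusted p = 0.225) and -0.19 in siGLP (adjusted p = 0.594). Of 19 genes of RNA polymerase III and 5S factors, 15 and 14 were below control (medians -0.055 and -0.042), with Polr3g at -0.17 in siG9a and Polr3c at -0.19 in siGLP.

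Other mRNAs with a TOP motif, such as translation factors, showed small differences, with 15 of 21 below control in siG9a (median -0.032) and 14 of 21 in siGLP (median -0.027). The smallest p belonged to the histone chaperone gene Nap1l1 in siG9a (-0.14; limma adjusted p = 0.509) and to the initiation factor gene Eif4b in siGLP (-0.20; limma adjusted p = 0.491). Of 14 genes on a list of elongation and termination factors and associated genes, 13 were below control in siG9a (median -0.063) and 10 in siGLP (median -0.045). By p, Eef1e1 (-0.28) ranked first on the list in siG9a and the release factor gene Gspt1 (-0.22) in siGLP. Mitochondrial ribosomal proteins, which belong to a separate ribosome, were nearly balanced in siG9a, with 38 of 71 below control (median -0.008), and lay more often below control in siGLP, with 45 of 71 (median -0.040). Of 15 pseudogene loci of ribosomal proteins with a symbol of their own, 10 were below control in siG9a (median -0.034) and 12 in siGLP (median -0.057). By p, Rpl34-ps2 (-0.13) ranked first of them in siG9a. In siGLP it was Rps15a-ps1, which lay above control (0.16) and was dim on all arrays (1.54 to 1.89). Of 3 genes related to ribosomal proteins but outside the symbol rule, 1 was below control in siG9a and 2 in siGLP, among them Rpl7l1 (-0.10 in siG9a) and Rps19bp1 (-0.22 in siGLP). No gene of these lists passed the threshold against control in the fit used here. Mrps33, of the mitochondrial ribosome, was at -0.64 in siG9a (limma adjusted p = 0.0812) and passed when genes dimmer than the 30th percentile (0.0452) or the median (0.0229) were dropped and with trended robust moderation (0.024).

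The regulators of ribosomal protein synthesis lay on both sides of control. Of 22 genes of mTORC1, Myc and TOP mRNA control, 13 were below control in each knockdown (medians -0.039 and -0.046). The smallest p belonged to Mxd4, an antagonist of Myc, in siG9a (0.46; limma adjusted p = 0.311) and to Eif4ebp2, a repressor of cap-dependent translation, in siGLP (-0.92; limma adjusted p = 0.133). Of 12 genes of the 5S particle and the p53 response to ribosome defects, 6 were below control in siG9a and 8 in siGLP. Cdkn1a, the cell cycle inhibitor p21, read 11.34 and 11.26 in control and 11.64, 11.58 and 11.64 in siG9a (0.33; limma adjusted p = 0.178), and Mdm2 read 9.14 and 9.06 in control and 9.56 and 9.32 in siGLP (0.34; limma adjusted p = 0.405). Neither passed, although the arrays did not overlap. Cdkn1a in siG9a did pass with trended robust moderation (limma adjusted p = 0.0462) and among the genes at log2 11 or more (0.0105), and Eif4ebp2 in siGLP with trended robust moderation (0.0327) and when genes dimmer than the median were dropped (0.0427).

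**Figure D5:**
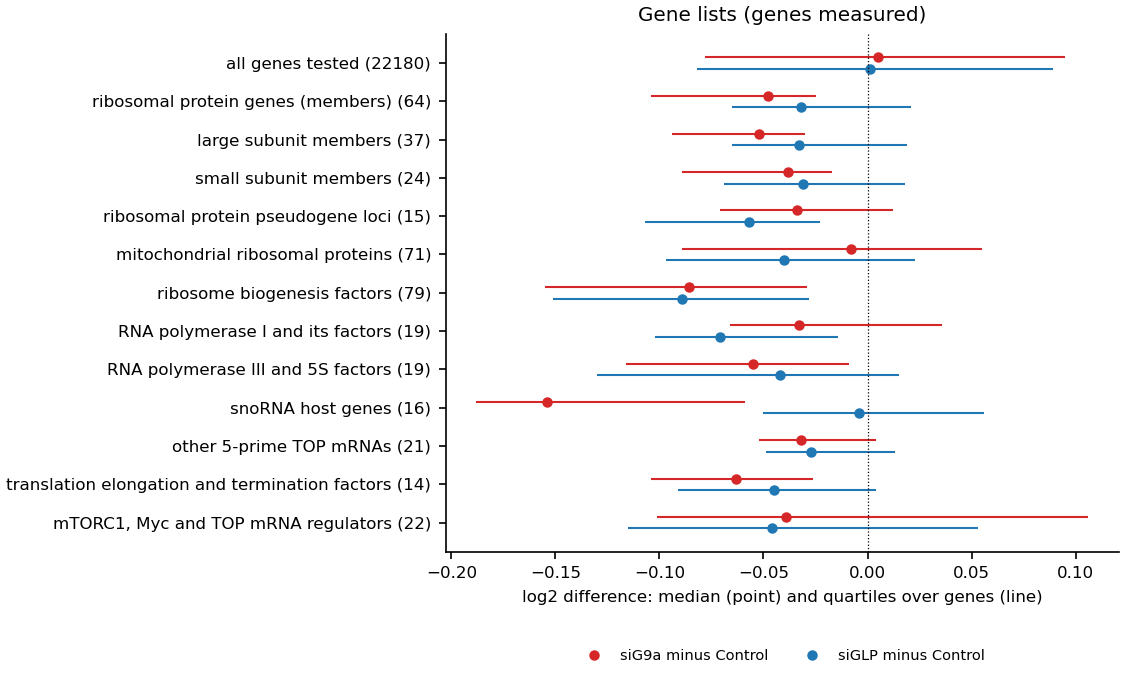
Median (point) and quartiles (line) of the log2 difference from control over the genes of each list (horizontal axis), with the number of genes measured in brackets, for siG9a (red) and siGLP (blue). The ribosomal protein genes lie at -0.048 and -0.032, biogenesis factors at -0.086 and -0.089, and snoRNA host genes at -0.154 and -0.004, siG9a first in each.

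The snoRNA host genes had the lowest median of these lists in siG9a and one near 0 in siGLP. These are mostly noncoding transcripts whose introns hold snoRNAs and which, like ribosomal protein mRNAs, begin with a TOP motif. In siG9a 13 of 16 lay below control (median -0.154), in siGLP 8 of 16 (median -0.004), and in siGLP minus siG9a 12 of 16 lay higher (median 0.121), with no gene past the threshold in any of these. Snhg15 read 7.46 and 7.39 in control, 7.13, 7.02 and 7.28 in siG9a and 7.44 and 7.51 in siGLP (-0.28 in siG9a; limma adjusted p = 0.342), with siG9a lowest, and in siGLP the smallest p belonged to Rabggtb (0.27; limma adjusted p = 0.746). By gene position, 43 snoRNA genes lay inside member genes and 12 were measured. Of these, 10 were below control in siG9a (median -0.125; smallest limma adjusted p = 0.225) and 5 in siGLP (median 0.079; smallest limma adjusted p = 0.205).

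The profile most like the members' mean over the 7 arrays, among 11031 other genes above the median level, was that of Snord42b, a snoRNA inside Rpl23a (Pearson r 0.985). It read 6.67 and 6.57 in control, 6.17, 6.34 and 6.19 in siG9a and 6.37 and 6.58 in siGLP (-0.39 in siG9a; limma adjusted p = 0.225). Next came the microRNA gene Mir3058 (r 0.982; -0.31 in siG9a), Psmc3ip, which acts in meiotic recombination (r 0.977; -0.20), and Cdc37, a co-chaperone that brings kinases to Hsp90 (r 0.974; -0.40). With 7 arrays and so many genes ranked, r near 1 describes likeness on these arrays and nothing more.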

How the data were processed

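RNA from 7 C2C12 samples was hybridised to 1 Affymetrix whole transcript array each. The authors deposited log2 values per probe set. RMA and Partek are named, with no version, in the submitters' processing notes. The RMA method corrects background, equalises the distribution of signal between arrays and summarises probes, so a shift shared by all transcripts is removed and dim probe sets are compressed. The log2 scale was read from the range of the values, and no source used here gives the genome build, the authors' own test or a scan batch. Of 33649 probe sets, the platform annotation gave 1 symbol to 23521, several to 1814 and none to 8314, and RefSeq gene numbers matched 23328 of the 23521.

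For every gene, limma 3.58.1 (R 4.3.3; lmFit, eBayes) estimated 1 mean per group from the 7 arrays together, which left 4 residual degrees of freedom per gene and 6.89 after moderation. Tests were two-sided, p-values were adjusted by Benjamini-Hochberg over the 22180 genes of each comparison, and a gene passed at an adjusted p under 0.05. The SD between arrays limits the precision, since arrays give no depth. The scripts were tested on simulated data. The members and gene lists were chosen with earlier results of these data known, so lists are described by counts and medians beside the same over all genes, with no list test. Named genes were the targeted genes, members of smallest p in each comparison, stalk proteins, related genes with their parents, genes of known side roles, and the gene of smallest p in each other list. Alternatives changed the filter, the normalization, the variance model, the arrays in the fit, the choice of probe set and the replicate number as a block. Promoter letters came from RefSeq entries of 300 bases, 250 before and 50 after a start.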

Additional observations from a re-analysis of the deposited data

Results flagged for a closer look

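Eif4ebp2, the gene of a repressor of cap-dependent translation and thereby of TOP mRNAs, differed between the knockdowns by the direct test of siGLP minus siG9a. Its log2 signal was 10.27 and 10.38 in control, 10.47, 10.59 and 10.68 in siG9a and 9.29 and 9.52 in siGLP, a difference of -1.18 (SE 0.099; limma adjusted p = 0.0277). Both siGLP arrays lay below all others, and all 3 siG9a arrays lay above control. Against control the differences were 0.25 in siG9a and -0.92 in siGLP, and neither passed (limma adjusted p = 0.443 and 0.133), although the siGLP difference did when genes dimmer than the median were dropped (0.0427) and with trended robust moderation (0.0327).

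Mrps33, a protein of the small subunit of the mitochondrial ribosome, likewise differed by the direct test. It read 8.82 and 8.85 in control, 8.06, 8.29 and 8.22 in siG9a and 8.88 and 8.87 in siGLP, so that siG9a lay lowest and siGLP beside control. Between the knockdowns it differed by 0.68 (SE 0.080; limma adjusted p = 0.0409), and that of siG9a minus control was -0.64 (limma adjusted p = 0.0812), which passed with trended robust moderation (0.024) and with genes below the 30th percentile (0.0452) or the median (0.0229) of level left out. Without any 1 array, neither gene passed any longer, with siGLP minus siG9a at -1.29 to -1.06 for Eif4ebp2 and 0.62 to 0.73 for Mrps33.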

How the results depend on the processing

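The count of genes past the threshold over all genes was 6 in siG9a, 1 in siGLP and 52 in siGLP minus siG9a, and it depended on the settings. Leaving out genes below the 30th percentile of level gave 30 in siG9a and 171 in siGLP minus siG9a. Leaving out those below the median gave 148, 21 and 350, and trended robust moderation 100, 23 and 304, in the order siG9a, siGLP, siGLP minus siG9a. Without variance moderation there were 0, 0 and 3, and with only the groups compared in the fit 0, 0 and 0. Leaving out 1 array gave 0 to 0, 0 to 1 and 0 to 0. With the replicate number as a block the counts were 0, 0 and 0. Same-numbered arrays had deviations correlated at 0.005 to 0.172, lowest for control 2 with siG9a 2. In a group of 2 arrays the deviations mirror each other, so these values cannot decide whether same-numbered samples were handled together. The labels give only the number. No ribosomal protein gene passed under any of these settings. Among the 242 genes at log2 11 or more, a setting chosen after seeing the data, 5 genes passed in siGLP and 11 in siGLP minus siG9a, with 1 member, Rps12, among the latter.

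The members' count below the reference group was 23, 20 and 12 of the 29 tested at log2 11 or more, and, over more probe sets (also chosen after seeing the data), 89 and 66 of 104 against control with 1 member symbol, and 132, 102 and 42 of 161 with several symbols added. The siGLP minus siG9a median was 0.033 over all 104 probe sets, 0.043 with the mean of a gene's probe sets and 0.057 with its dimmest one, where 12 members were lower. Leaving out 1 array gave medians of -0.032 to -0.008 in siGLP and 0.000 to 0.041 in siGLP minus siG9a, with 13 to 31 members lower in the latter.

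Some values changed sign. In siG9a, quantile normalization put Rplp1 at 0.012 and Rps3a1 at 0.019, cyclic loess put Rplp1 at 0.031, Rps6 at 0.0012 and Rps3a1 at 0.013, the replicate block put Rps20 at -0.0019 and Rplp1 at 0.0072, and Fau was at -0.040 with the mean of its probe sets and -0.092 with the dimmest. In siGLP, Fau was at 0.00051 with cyclic loess, 0.054 with the mean and 0.13 with the dimmest probe set, which also put Rps24 at 0.020, Rplp0 at 0.028, Rplp1 at -0.00063 and Rpsa at 0.022, and in siGLP minus siG9a Rps9 at 0.037. Without 1 array, siG9a differences ranged from -0.002 to 0.033 for Fau, -0.36 to 0.0092 for Rpl11, -0.17 to 0.002 for Rpl3, -0.22 to 0.034 for Rpl5, -0.01 to 0.0084 for Rplp1, -0.074 to 0.14 for Rps20, -0.0083 to 0.077 for Rps23, -0.081 to 0.0009 for Rps27, -0.015 to 0.046 for Rps27l and -0.083 to 0.059 for Rps3a1. Those in siGLP ranged from -0.058 to 0.014 for Fau, -0.013 to 0.55 for Rabggtb, -0.033 to 0.045 for Rplp1, -0.082 to 0.43 for Rplp2, -0.46 to 0.01 for Rps15 and -0.14 to 0.0012 for Rps3a1. The causes were not tested.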
